A study of Mus musculus with 17 samples.

Results

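Usp18 and interferon-stimulated genes were described in mouse liver across aryl hydrocarbon receptor (AHR) genotype and exposure to the dioxin TCDD. The members were 9 listed genes, Usp18, Isg15, Ifit1, Ifit2, Ifit3, Irf7, Oasl2, Rsad2 and Ifi44, out of 18193 genes measured. They were found by taking every probe set that the array annotation maps to a listed symbol or a synonym of it. For 7 of the genes, 9 probe sets name that gene alone. Isg15 shares its probe set with Gm9706, a pseudogene, so which of them it reads is uncertain. The annotation names no probe set for Ifi44, which therefore has no value here. The list was drawn up with earlier results of these arrays in view, so its members count as chosen by their levels on the 17 arrays, and their levels, differences and counts are given as a description and without a test.

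Type I interferon binds a cell surface receptor whose kinases JAK1 and TYK2 activate transcription factors that bind interferon-stimulated response elements in the promoters of target genes. USP18 is a protease that removes the ubiquitin-like modifier ISG15 from proteins and also blocks signalling at the receptor subunit IFNAR2, so it is both a product and a brake of the pathway. IFIT proteins bind viral RNA, IRF7 is a transcription factor that amplifies interferon production, OASL2 belongs to the oligoadenylate synthetase family, and RSAD2, also called viperin, is an antiviral enzyme. AHR is a ligand-activated transcription factor and the receptor for TCDD.

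The livers came from male mice on a C57BL/6J background and were taken 19 h after 1 gavage. In 4 groups, Ahr+/+ (wild type) mice received TCDD at 1000 µg/kg (n = 6) or the corn oil vehicle (n = 5), and Ahr-/- (knockout) mice received the same TCDD dose (n = 3) or corn oil (n = 3). The knockouts were 10 weeks old and came from The Jackson Laboratory, while the wild types were 15 weeks old and bred in Kuopio from stock of that origin, so age and source cannot be told apart from genotype. The receptor was missing from the whole animal, not from the liver alone. Whole-genome Affymetrix mouse arrays read the RNA of each sample. Levels are log2 expression values as the authors deposited them, and differences are on that log2 scale with the model's standard error (SE). No label states that replicates were separate mice, so livers counted below are samples, 1 per array. Errors and p-values therefore cover only the spread between these samples, and that may be technical. The number of arrays limits the precision. In whole liver RNA, fewer cells of a type and less RNA per cell cannot be told apart.

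RefSeq promoter windows ran from 250 bases before to 50 bases after a gene start in the mouse build GRCm38.p6. None was available for Usp18, which was therefore not searched. The other 8 genes had 9 windows. They were searched on both strands for a core of the interferon-stimulated response element, GAAANNGAAA or its reverse complement TTTCNNTTTC, where N is any base. Of all 32851 windows 3.44% held a match, and among the members it was found in 4 of 9 windows, those of Isg15, Ifit1, Ifit3 and Rsad2. The matches are printed with 10 bases on each side, 5′ to 3′ on the gene's strand and with the match in capitals, because they let the shared letters of the Ifit1 and Ifit3 matches be seen beside the single match of Rsad2.
Isg15 (chr4:156200865-156200906, minus strand, positions -78 to -57 from the gene start): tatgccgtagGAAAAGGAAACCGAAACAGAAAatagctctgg
Ifit1 (chr19:34640775-34640804, plus strand, -104 to -95): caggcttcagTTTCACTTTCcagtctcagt
Ifit1 (chr19:34640794-34640823, plus strand, -85 to -76): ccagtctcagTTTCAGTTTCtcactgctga
Ifit3 (chr19:34583363-34583392, plus strand, -156 to -147): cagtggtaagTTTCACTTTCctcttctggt
Ifit3 (chr19:34583397-34583426, plus strand, -122 to -113): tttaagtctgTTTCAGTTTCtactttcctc
Rsad2 (chr12:26456553-26456582, minus strand, -120 to -111): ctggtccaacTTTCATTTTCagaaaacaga
The capitals of Isg15 hold 3 overlapping matches. In Ifit1 and Ifit3, both on chromosome 19, the upstream match has the same letters and so does the downstream one, while their positions and the bases around them differ. No match lay in the windows of Ifit2 (2 windows), Irf7, Oasl2 and Ifi44, which says only that these letters are not in those windows. Of the windows of 44 other type I interferon-stimulated genes, 21 of 57 held a match (36.84%). The core of the AHR response element, GCGTG or CACGC, was in 4 of 9 member windows, those of Ifit2, Oasl2, Rsad2 and Ifi44, and in 32.39% of all windows. A match is a description of letters and not of binding.

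Before the members, the arrays were set against their labels. Cyp1a1, the classic AHR target, lay between 15.08 and 15.25 in wild type livers with TCDD, against 4.99 to 6.95 with corn oil, while in knockout livers it was 12.64, 5.32 and 5.34 with TCDD, against 5.81 to 7.18 with corn oil. The knockout TCDD library of replicate 1 therefore stood apart from its group in Cyp1a1. The Ahr probe set was 0.39 ± 0.23 lower in knockout than in wild type livers with corn oil (9.50 against 9.89), and its position relative to the deletion is not stated in the labels. The Gapdh 3′ and 5′ control probe sets were 1.98 apart in wild type TCDD replicate 6, against -0.17 to -0.01 on the other arrays, a sign of RNA quality. For the TCDD differences of the members' representative probe sets, values without these libraries are given where they turn the sign or move by over 1.5 times, and for Usp18.

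TCDD was accompanied by a 4.50-fold higher Usp18 level in wild type livers, and by no rise in knockout livers. Usp18 was 8.42, 9.27, 8.26, 9.18, 8.70 and 9.08 in the 6 wild type TCDD livers, with a median of 8.89, against 6.55, 6.18, 6.92, 6.60 and 7.0 in wild type corn oil livers. All TCDD livers were above all corn oil livers, which held for 2.34% of all probe sets. The difference was 2.17 ± 0.26 (95% interval 1.62 to 2.72), a fold interval of 3.08 to 6.58. It was 2.12 without wild type TCDD replicate 6, 2.30 within scan day 1 and 2.24 within scan day 2.

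In knockout livers Usp18 was 5.66, 4.89 and 6.37 with TCDD, against 6.57, 6.41 and 6.16 with corn oil. The groups overlapped through TCDD replicate 3, and TCDD replicate 2 was the lowest of all 17 arrays. The difference was -0.74 ± 0.34 (95% interval -1.48 to 0.003), and it was -0.75 without knockout TCDD replicate 1, the library with high Cyp1a1. Within scan day 2 it was -0.88, where replicate 3 is the only knockout corn oil array. The value over all scan days rested on single arrays, since it was -1.10 without TCDD replicate 3 and -0.36 without TCDD replicate 2. With corn oil alone, Usp18 differed by -0.27 ± 0.31 between knockout and wild type livers, and these groups overlapped.

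The order of the group means was wild type TCDD at 8.82 ± 0.42 (SD), wild type corn oil at 6.65 ± 0.33, knockout corn oil at 6.38 ± 0.21 and knockout TCDD at 5.64 ± 0.74. Wild type TCDD was separated from its neighbour in that order, whereas the livers of wild type and knockout corn oil overlapped, as did those of both knockout groups. The effect of TCDD in knockout minus that in wild type livers was -2.91 ± 0.43 (95% interval -3.83 to -1.99), which was -2.92 without knockout TCDD replicate 1.

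**Figure D1:**
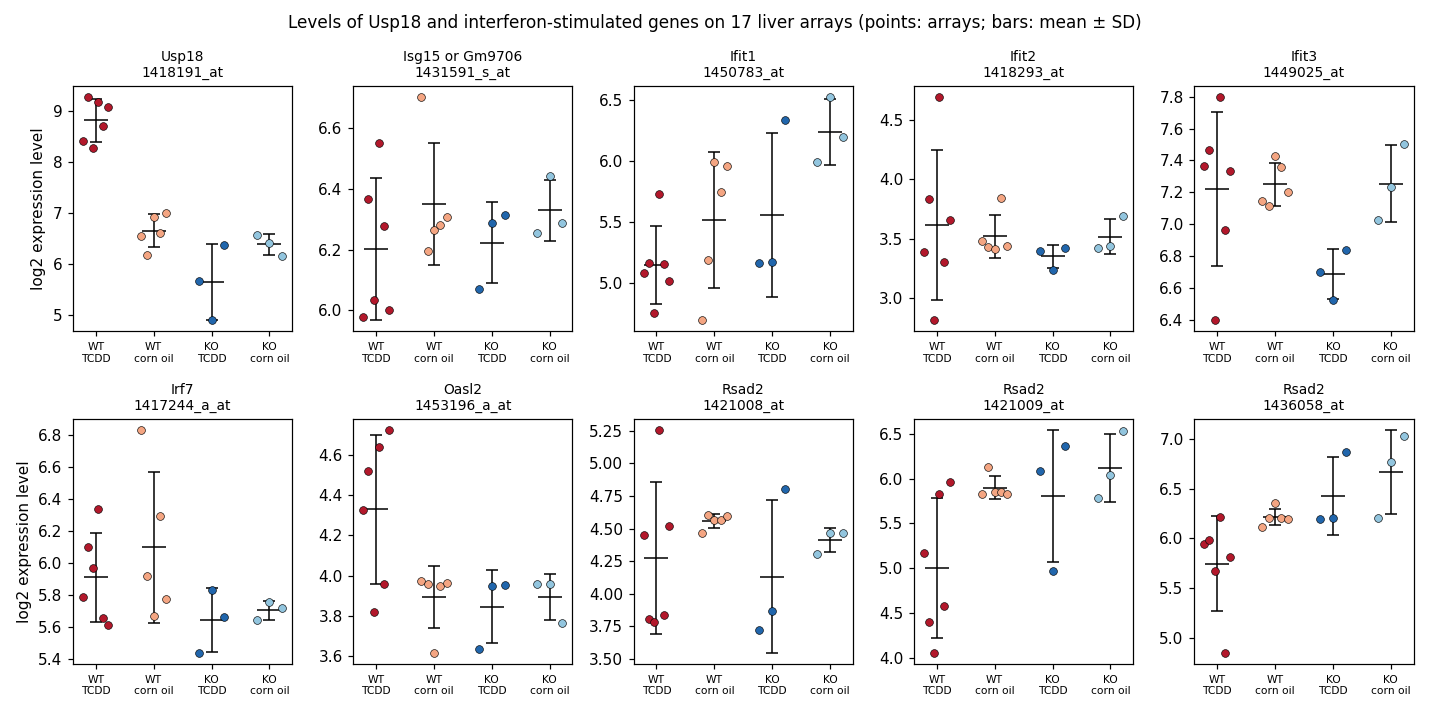
Log2 expression level of each member probe set by group, with 1 point per array and bars for mean ± SD; the vertical scales differ between panels. Usp18 is the only panel in which the 6 wild type TCDD points lie wholly above the wild type corn oil points, and Oasl2 has 4 of 6 above them.

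Isg15, the modifier that USP18 removes, could be followed only through the probe set it shares with Gm9706. That probe set was 5.98, 6.37, 6.03, 6.55, 6.28 and 6.00 in wild type TCDD livers, against 6.70, 6.19, 6.26, 6.28 and 6.31 in wild type corn oil livers. It was 6.07, 6.29 and 6.31 in knockout TCDD livers, against 6.26, 6.44 and 6.29 in knockout corn oil livers. Both pairs of groups overlapped, with differences of -0.15 ± 0.11 (95% interval -0.39 to 0.09) in wild type and -0.11 ± 0.15 (-0.43 to 0.22) in knockout livers. A rise of the size seen for Usp18 lies outside both intervals for this probe set.

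The IFIT genes, whose products bind viral RNA, had no rise like that of Usp18 in the wild type TCDD means. Ifit1 was 5.08, 5.16, 4.75, 5.73, 5.15 and 5.01 in wild type TCDD livers, against 4.69, 5.19, 5.99, 5.75 and 5.96 in wild type corn oil livers. The corn oil livers were the more widely spread and enclosed all TCDD values, and the difference was -0.37 ± 0.27 (95% interval -0.95 to 0.22). It was -0.57 without corn oil replicate 1, and 0.43 within scan day 1, where that replicate is the only wild type corn oil liver. Ifit1 was 5.16, 5.17 and 6.33 in knockout TCDD livers, against 5.99, 6.52 and 6.19 in knockout corn oil livers. TCDD replicate 3 lay among the corn oil livers and the other two were below them, a difference of -0.68 ± 0.37 that was -1.07 without that replicate and -0.48 without replicate 1.

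Ifit1 was also the one member whose knockout and wild type corn oil livers did not overlap. The 3 knockout livers, at 5.99 to 6.52, were above the wild type livers, the highest of which rounds to 5.99 as well, with a difference of 0.72 ± 0.33 (95% interval 0.02 to 1.42) that was 1.56 within scan day 1 and 0.55 within scan day 2. Of all probe sets 3.75% were as fully separated in that direction, and nothing is read from this count of 1.

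Ifit2 was close to the array medians of 3.08 to 3.19, where signal over background is small. It was 3.39, 3.83, 2.81, 4.69, 3.31 and 3.66 in wild type TCDD livers, against 3.48, 3.44, 3.41, 3.84 and 3.44 in wild type corn oil livers. The TCDD livers held both the lowest and the highest value of the 17, in replicates 3 and 4, and the difference was 0.10 ± 0.24. In knockout livers Ifit2 was 3.40, 3.24 and 3.42 with TCDD, against 3.42, 3.44 and 3.69 with corn oil, a difference of -0.17 ± 0.32 with no overlap but a gap that is lost on rounding.

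Ifit3 had the same extremes as Ifit2, with 7.37, 7.47, 6.40, 7.80, 6.96 and 7.33 in wild type TCDD livers, against 7.15, 7.11, 7.43, 7.36 and 7.20 in wild type corn oil livers. The lowest and highest values again belonged to TCDD replicates 3 and 4, and the mean difference was -0.03 ± 0.19, or -0.05 without TCDD replicate 6. Ifit3 was 6.70, 6.52 and 6.84 in knockout TCDD livers, against 7.03, 7.23 and 7.51 in knockout corn oil livers. All TCDD livers were lower, by 0.57 on average (difference -0.57 ± 0.26, 95% interval -1.12 to -0.01). Full separation downwards was the case for 44.6% of all probe sets in this contrast, so the 2 members that showed it, Ifit2 and Ifit3, do not stand out by it. Ifit3 has a near-identical copy, Ifit3b, and whether the probe set reads both was not tested.

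Irf7, the transcription factor, was 5.79, 6.10, 5.97, 6.34, 5.66 and 5.61 in wild type TCDD livers, against 6.83, 5.92, 5.67, 6.29 and 5.78 in wild type corn oil livers. Corn oil replicate 1 was the highest and the groups overlapped, with a difference of -0.19 ± 0.19 (95% interval -0.59 to 0.22) that was -0.005 without that replicate and -0.89 within scan day 1, where it is the only wild type corn oil liver. In knockout livers it was 5.44, 5.83 and 5.66 with TCDD, against 5.64, 5.76 and 5.72 with corn oil, a difference of -0.06 ± 0.26 that was 0.04 without TCDD replicate 1. With corn oil, knockout livers differed from wild type livers by -0.39 ± 0.23, or by -0.21 without wild type replicate 1 and -1.13 within scan day 1.

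Oasl2 was the only other member with a positive wild type interval. It was 4.32, 4.52, 3.82, 4.64, 3.96 and 4.72 in wild type TCDD livers, against 3.97, 3.96, 3.62, 3.95 and 3.96 in wild type corn oil livers. TCDD replicates 1, 2, 4 and 6 were above every corn oil liver while replicates 3 and 5 were not, and the difference was 0.44 ± 0.15 (95% interval 0.11 to 0.76). It was not called at the threshold used across all probe sets, and it was 0.26 without TCDD replicates 4 and 6 together. In knockout livers Oasl2 was 3.64, 3.95 and 3.95 with TCDD, against 3.96, 3.96 and 3.76 with corn oil, a difference of -0.05 ± 0.20 that was 0.06 without TCDD replicate 1. The effects differed by -0.49 ± 0.25 (95% interval -1.03 to 0.06). In each group other than wild type TCDD, most Oasl2 values lay between 3.95 and 3.97. Whether these are signal or background was not tested, so the size of the wild type difference is uncertain.

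Rsad2 was read by 3 probe sets, and all had a negative mean difference in wild type livers. The representative one, with the highest mean level, was 5.94, 5.99, 5.67, 6.22, 4.85 and 5.81 in wild type TCDD livers, against 6.12, 6.21, 6.35, 6.20 and 6.20 in wild type corn oil livers. All TCDD livers but replicate 4 were below every corn oil liver, with a difference of -0.47 ± 0.22 (95% interval -0.94 to -0.0003). The second was 5.17, 4.41, 4.06, 5.83, 4.58 and 5.96 in wild type TCDD livers, against 5.83, 6.13, 5.86, 5.85 and 5.83 in wild type corn oil livers. Its difference was -0.90 ± 0.34, the most negative of the members in this contrast.

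The last Rsad2 probe set had wild type TCDD livers from 3.78 to 5.25 (median 4.15), against corn oil livers of 4.47 to 4.61, and a difference of -0.28 ± 0.25. In knockout livers the representative probe set was 6.20, 6.20 and 6.88 with TCDD, against 6.21, 6.77 and 7.03 with corn oil. The knockout differences of the 3 probe sets were -0.24 ± 0.30, -0.31 ± 0.46 and -0.28 ± 0.34, each with an interval on both sides of 0, and that of the representative one was -0.13 without TCDD replicate 1.

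Counted together, 1 of 7 members with a probe set of their own was called for TCDD in wild type livers (adjusted p under 0.05 in the fit over all probe sets), and it was Usp18. Of all probe sets 4.18% were called in that contrast, 2.54% as higher and 1.63% as lower, and with 1 probe set per gene 6.32%. For TCDD in knockout livers 0 of 7 were called (0.0133% of all probe sets), and for genotype with corn oil 0 of 7 (1.45% of all). For the difference of the TCDD effects 1 of 7 was called, again Usp18 (1.11% of all). Since the members count as chosen on these contrasts, nothing is read from the counts. The median difference of the 7 members was -0.03 in wild type livers with TCDD, against 0.009 over all genes. It was -0.24 in knockout livers with TCDD (-0.19 without TCDD replicate 1), against -0.02 over all genes.

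**Figure D2:**
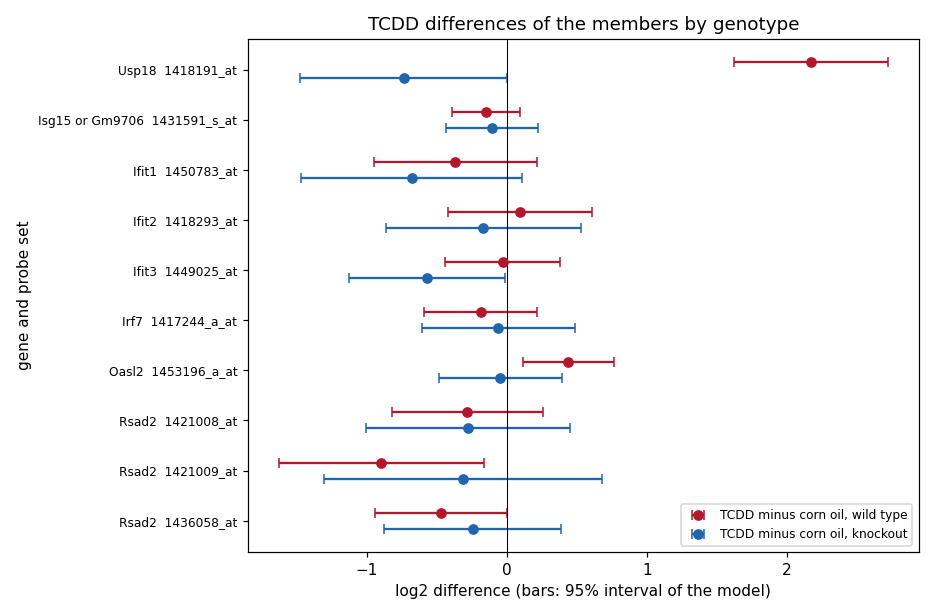
Log2 difference between TCDD and corn oil livers for each member probe set, in wild type (red) and knockout (blue) livers; bars are 95% intervals of the model. Usp18 lies at 2.17 in wild type and -0.74 in knockout livers, and the other wild type differences lie between -0.90 and 0.44.

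Among the members other than Usp18, Ifit2, Ifit3, Oasl2 and Rsad2 spread more widely with TCDD than with corn oil in wild type livers. Ifit1 and Irf7 spread less. On each of TCDD replicates 2 to 5 most of these 6 genes deviated in the same direction. The median SD of the 6 others was 0.42 in wild type TCDD livers, 0.17 in wild type corn oil livers, 0.19 in knockout TCDD livers and 0.19 in knockout corn oil livers. For all genes above the median level these values were 0.14, 0.13, 0.12 and 0.10. In wild type corn oil livers Oasl2 lay at 3.95 to 3.97 except in replicate 3, and Ifit2 at 3.41 to 3.48 except in replicate 4. Ifit3 ran from 7.11 to 7.43 there and the representative Rsad2 probe set from 6.12 to 6.35. Whether values near background narrow the corn oil spread was not tested. Taken as deviations from the group mean and averaged over the 6 genes, wild type TCDD replicates 1 to 6 lay at -0.01, 0.18, -0.42, 0.57, -0.35 and 0.03. In replicates 2 and 4 all 6 genes were above their group mean, and in replicates 3 and 5 only 1 of 6 was. Usp18 deviated by -0.40, 0.45, -0.55, 0.36, -0.12 and 0.27 on the same arrays, so it was above its mean on both arrays with the highest averages and below it on both with the lowest.

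Over all 17 arrays the deviations of the 15 pairs among the 6 others had correlations of -0.26 to 0.86, with a median of 0.43. The highest was that of Ifit2 with Ifit3, at 0.86, and the lowest that of Ifit1 with Irf7, at -0.26. Usp18 correlated with the others at -0.09 to 0.66, highest with Ifit1. These are descriptions over arrays that share RNA, scan and normalization within each point. On the same wild type TCDD arrays the mean deviation of 54 other interferon-stimulated genes was 0.04, 0.05, -0.13, 0.20, -0.16 and 0.003, and that of 14 guanylate-binding and related genes was -0.05, 0.23, -0.30, 0.48, -0.32 and -0.04. Replicate 4 was the highest and replicates 3 and 5 the lowest in each of these lists. Scan day was shared by replicates 3 to 6, which include both extremes. In replicate 6, with the wide Gapdh gap, the average of the 54 genes was near 0 but 40 of them were above their group mean, as many as in replicate 4. Kupffer cell and macrophage markers deviated by 0.11, -0.06, 0.04, 0.28, -0.11 and -0.27 on these arrays, highest in replicate 4 (9 of 9 above their mean) and lowest in replicate 6 (0 of 9). Endothelial markers deviated by 0.07, -0.003, -0.12, 0.04, -0.11 and 0.13, lowest in replicates 3 and 5. The part of these cells, of scan day and of RNA quality in the shared spread was not tested.

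**Figure D3:**
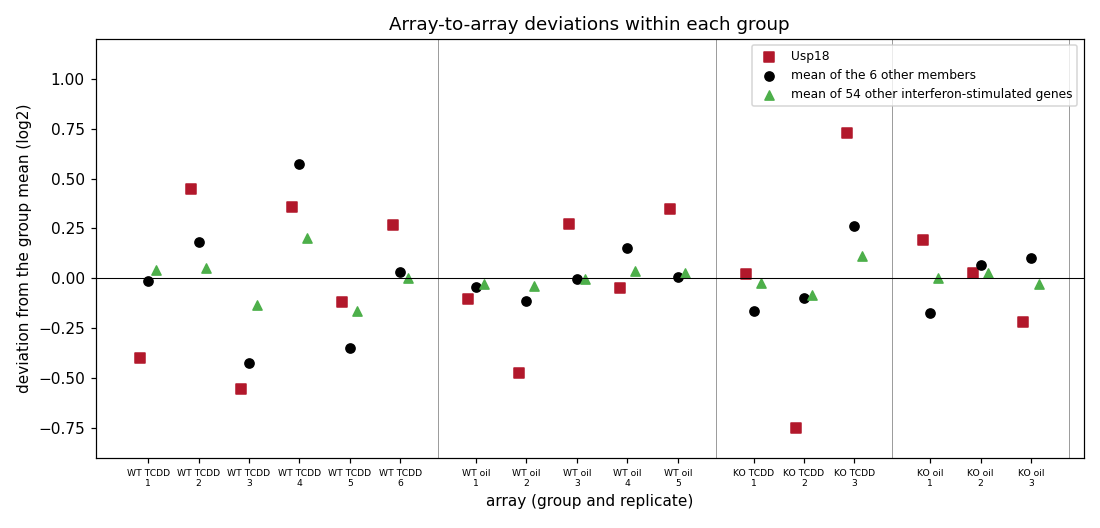
Deviation of each array from its group mean (log2) for Usp18 (red squares), the mean of the 6 other members (black circles) and the mean of 54 other interferon-stimulated genes (green triangles). Among wild type TCDD arrays the black circles run from -0.42 to 0.57, against -0.11 to 0.15 among wild type corn oil arrays.

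The rest of the pathway was followed in lists, chosen with earlier results of these data known, that hold 155 genes, of which 130 were measured. In wild type livers with TCDD 5 of these rose and 4 fell, 6.92% of those measured beside 6.32% over all genes. No interferon gene was called (0 of 9, 8 of them below the median level). No gene of the receptors and JAK-STAT proteins was called (0 of 12), nor any other interferon regulatory factor (0 of 6) or ISG15 conjugating enzyme (0 of 5). At an unadjusted p under 0.05 by limma there were 0, 3, 3 and 0 in these lists. Since the pathway lists were chosen with earlier results of these data known, p-values of their genes are given as a description.

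Tiparp, an ADP-ribosyltransferase that is an AHR target and a brake on interferon induction, had the largest rise among these pathway genes, at 10.50 ± 0.40 with TCDD against 4.72 ± 0.48 with corn oil (SD). The limma difference was 5.78 ± 0.21, with an adjusted p of 5.43e-10. It was the 1 of 11 negative regulators other than Usp18 that was called. The effect in knockout minus wild type livers was -5.38 ± 0.36 (adjusted p 1.48e-06, limma), with a knockout difference of 0.40 ± 0.29.

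Of 54 other type I interferon-stimulated genes 3 rose and 2 fell in wild type livers, where 6.32% of all genes were called. At an unadjusted p under 0.05 by limma there were 10 of the 54. The list's median difference was 0.01, beside 0.009 over all genes, and 45 of its genes were above the median level. Rigi, the RNA sensor RIG-I, was 7.94 ± 0.37 with TCDD against 6.89 ± 0.38 with corn oil, a difference of 1.05 ± 0.20 (limma adjusted p 0.00533). Pml, a nuclear body protein, rose by 0.62 ± 0.12 (limma adjusted p 0.00688), and Parp9, a partner of the ubiquitin ligase DTX3L, by 0.54 ± 0.11 (0.00813). In all 3 genes every TCDD liver was above every corn oil liver. Within scan days 1 and 2 the differences were 1.57 and 0.93 for Rigi, 1.09 and 0.48 for Pml and 0.76 and 0.45 for Parp9, and none of these passed with so few arrays. Helz2, a helicase, fell by 0.47 ± 0.10 and Ifitm3, a membrane protein that restricts virus entry, by 0.23 ± 0.05, both named after their values were seen. In knockout livers 0 of the 54 were called with TCDD, 2 at an unadjusted p under 0.05 by limma.

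Mavs, the adaptor of Rigi, fell by 0.49 ± 0.12 in wild type livers (limma adjusted p 0.0307) and left 1 higher and 1 lower of 15 sensing genes. This call was lost without any 1 of corn oil replicates 1, 2, 4 and 5 or TCDD replicates 1, 3, 4 and 5, with adjusted p-values of 0.0545 to 0.0883, and with scan day as a block (0.0691). Psmb10, an immunoproteasome subunit, was 9.74 ± 0.23 with TCDD against 8.83 ± 0.15 with corn oil, a rise of 0.91 ± 0.10 (limma adjusted p 7.83e-05) and the 1 call among 12 antigen presentation genes. Its effect differed by -1.02 ± 0.17 in knockout livers (adjusted p 0.0081), and with scan day as a block by -0.91 (adjusted p 0.0764, no longer called). Iigp1, an immunity-related GTPase, fell by 0.36 ± 0.07 (limma adjusted p 0.00451), the 1 call among 14 genes of its list.

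**Figure D4:**
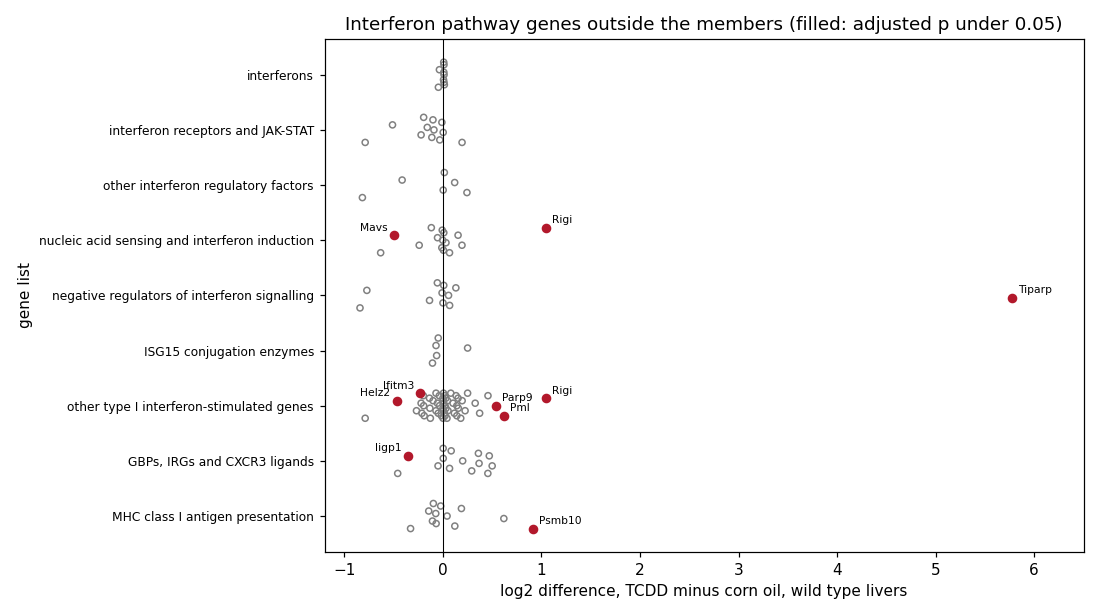
Log2 difference between TCDD and corn oil in wild type livers for each measured pathway gene outside the members, by list; filled red points passed an adjusted p of 0.05. Most points lie near 0, Tiparp lies at 5.78, and genes in 2 lists, Rigi among them, are drawn in both.

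Between genotypes with corn oil 3 of the 130 pathway genes were called, 1 higher and 2 lower in knockout livers (2.31% beside 2.34% over all genes). Iigp1 was 12.04 ± 0.13 in knockout against 12.63 ± 0.14 in wild type livers, a difference of -0.58 ± 0.08 (limma adjusted p 0.00103). H2-K1, a class I antigen presenting chain with close relatives that its probe set may also read, differed by -0.25 ± 0.05 (0.0303), and Ptpn2, a phosphatase of JAK kinases, by 0.60 ± 0.11 (0.0148). The H2-K1 call was lost without knockout corn oil replicate 3 or any 1 of the 5 wild type corn oil livers (adjusted p 0.0516 to 0.11) and with scan day as a block (0.0692), and that of Ptpn2 without knockout corn oil replicate 2 (0.0619) or 3 (0.0758). With the mean of all probe sets of a gene both calls were lost, at -0.12 for H2-K1 (0.338) and 0.23 for Ptpn2 (0.0504).

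Markers of the cells that often carry interferon-stimulated genes were read on the same arrays. None of 9 Kupffer cell and macrophage markers was called in any contrast, and their mean level ran from 6.98 to 7.54 in wild type TCDD livers, against 7.08 to 7.65 in wild type corn oil livers. Of 9 dendritic cell markers 1 rose with TCDD in wild type livers, Tcf4, and the list's mean level was 3.64 to 3.70 with TCDD, against 3.47 to 3.55 with corn oil. Among these markers the median difference was 0.005, and Tcf4 alone was far from 0. T and NK cell markers (0 of 9), B cell markers (0 of 5) and monocyte and neutrophil markers (0 of 6) were not called with TCDD. Of these lists only 2, 2 and 1 markers were above the median level, and of the dendritic cell markers 4 of 9. So few calls therefore say little about these cells. Of 9 hepatocyte markers 4 fell with TCDD, with mean levels of 14.22 to 14.42 against 14.48 to 14.59 with corn oil. Of 7 endothelial markers 3 fell, with mean levels of 6.90 to 7.15 against 7.26 to 7.38, and 0 of 7 stellate cell and cholangiocyte markers were called. Over all genes 6.32% were called in this contrast. Between genotypes with corn oil 1 hepatocyte and 1 endothelial marker were called, both higher in knockout livers, where 2.34% of all genes were called. Tcf4, a transcription factor also active outside dendritic cells, had a TCDD difference of 1.55 ± 0.15 in wild type livers, and in knockout livers one of -0.20 ± 0.21. The part of these cells in the Usp18 difference was not tested.

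Genes whose level was most like that of Usp18 over the 17 arrays were found among 11515 genes above the median level. The 8 highest were Mrps7 (Pearson's r 0.96), Selenok (0.96), Rps18 (0.96), Hsd17b2 (0.96), Rcbtb2 (0.95), Dynll1 (0.95), Ipo13 (0.95) and Them7 (0.95), none of them in a pathway list. The wild type TCDD arrays stand apart in Usp18, so all these values are read across that gap. The largest wild type differences among them were 1.57 for Them7 and 1.47 for Hsd17b2, a steroid dehydrogenase, against -0.05 and -0.08 in knockout livers. The genes whose deviations from the group means were most like the members' mean were Ogfr (0.87), Eftud2 (0.87), Elp5 (0.86), Pigh (0.85), Wdr18 (0.84), Irgm1 (0.84), Rnf213 (0.83) and Mettl21a (0.83), of which only Irgm1 is in a pathway list.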

How the data were processed

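Total RNA of mouse liver was read on 17 arrays, 1 per sample. The values are log2 expression levels per probe set that the authors deposited. Per the submitters' processing notes, affy 1.5.8 was used, and both RMA and GCRMA are listed without saying which gave this table. Such normalization makes array distributions alike (array medians 3.08 to 3.19). Of 45101 probe sets, 64 controls were left out and 45037 tested with no filter on level. Genes were named by the array annotation (34945 probe sets name 1 gene, 932 several, 9160 none), and 34741 matched the RefSeq gene table by Entrez ID; a gene is represented by its probe set with the highest mean. A mean for each group was fitted to all arrays by lmFit and eBayes of limma 3.58.1 (R 4.3.3, 13 residual degrees of freedom), two-sided, with Benjamini-Hochberg adjustment over all probe sets of a contrast and a call at 0.05. The procedure was tested on simulated data. The named genes are all members, up to 3 called genes of largest difference per pathway list and contrast, 8 genes most like Usp18 in level and 8 most like the members' mean in deviation, and Ahr, Cyp1a1 and Tiparp as checks. Members, lists and tests were chosen with earlier results of these data known. The alternatives were quantile normalization, median centring, array weights, a trend and robust prior, scan day or replicate number as a block, a filter on low values, the mean of a gene's probe sets, each scan day alone, and leaving out arrays. Scan days (3) were read from the arrays' scan settings, and each of the 4 groups spans more than 1 of them. On scan day 1 replicate 1 is the only wild type corn oil array. Knockout TCDD and knockout corn oil arrays share only scan day 2, with TCDD replicates 1 and 2 and corn oil replicate 3. Exposure and scan day are therefore only partly separable in the knockouts.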

Additional observations from a re-analysis of the deposited data

Results flagged for a closer look

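In wild type corn oil livers 4 values lay far from the rest of their group. The Isg15 and Gm9706 probe set was 6.70 in replicate 1, against 6.19 to 6.31 in the others. Ifit2 was 3.84 in replicate 4, against 3.41 to 3.48. Oasl2 was 3.62 in replicate 3, against 3.95 to 3.97, and the second Rsad2 probe set was 6.13 in replicate 2, against 5.83 to 5.86. These are 4 of 20 groups of values examined, and they fall on 4 different arrays. A chance rate of about 1 in 20 would need independent groups with normally spread values. Here the groups share arrays and some hold nearly equal values, so nothing is read from the count.

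The effect of TCDD differed between knockout and wild type livers for Usp18 (-2.91), for Tiparp (-5.38) and for Psmb10 (-1.02). These are descriptions, because members and lists were chosen with earlier results of these data known.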

How the results depend on the processing

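The Usp18 difference between TCDD and corn oil in wild type livers stayed between 2.05 and 2.28 when any 1 array was left out, and was 2.30 within scan day 1 (3 arrays in that contrast) and 2.24 within scan day 2. Leaving out any 1 array gave -1.10 to -0.36 for Usp18 with TCDD in knockout livers, -0.39 to -0.16 between genotypes and -3.27 to -2.53 for the difference of effects. The members' median ran from -0.145 to 0.134 (wild type), -0.477 to -0.112 (knockout), -0.089 to 0.046 (genotype) and -0.539 to -0.197 (difference). But the wild type median was 0.268 within scan day 1, where replicate 1 is the only wild type corn oil array. The knockout median was -0.832 within scan day 2, where replicate 3 is the only knockout corn oil array. The cause of these shifts was not tested. Of the 54 other interferon-stimulated genes, 5 were called in wild type livers without any 1 array and 0 to 1 in the other contrasts, but 0 were called within scan day 1 and 0 within scan day 2, where fewer arrays enter. The genotype count was 1, in place of 0, with quantile normalization, the filter on low values, the mean of probe sets per gene, within scan day 2 and without wild type TCDD replicates 4 and 6 together, which was chosen after seeing the data. The count for the difference of effects was 1 with array weights. With a scan day block the calls of Mavs (adjusted p 0.0691), H2-K1 (0.0692) and Psmb10 for the difference of effects (0.0764) were lost. Replicate numbers did not pair the samples (correlations of same-numbered deviations -0.27 to 0.10). A replicate block lowered the calls to 1436 in wild type, 0 in knockout, 347 for genotype and 364 for the difference, against 1882, 6, 654 and 501 without it, and lost H2-K1 (0.158); array weights gave 2237, 51, 1310 and 1071.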
